A study of Homo sapiens with 27 samples.

Results

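Doxorubicin-treated A431 cells were compared to untreated A431 cells 48 h after treatment, with 3 libraries in each group. These are 6 of the 27 RNA-seq libraries of the series, and they were chosen by their labels, not by any measured value. The series asked how Compound Kushen Injection (CKI), a herbal extract, interacts with chemotherapy drugs, and it holds 15 libraries of A431, a cell line from a human epidermoid carcinoma, and 12 of MDA-MB-231, a breast adenocarcinoma line. The untreated group received no agent and the doxorubicin group received doxorubicin. The 3 other A431 groups, used here only for comparison, received a vehicle control, CKI, or CKI with doxorubicin, and all 5 groups were harvested at 48 h with 3 libraries each, described as biological replicates. The labels list doxorubicin at 1 ng/ml and 5 mg/ml without tying either concentration to these libraries, do not say what the vehicle contained, and do not say whether replicates were separate cultures. The p-values below therefore measure the spread between these libraries.

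Doxorubicin is an anthracycline that inserts itself between DNA bases and traps topoisomerase II on cut DNA, which leaves strand breaks. Broken or misplaced DNA is known to halt the cell cycle through p53 and CDK inhibitors, and to set off interferon production through sensors of DNA and RNA in the cytoplasm. A431 cells are squamous keratinocyte-like tumour cells known for their very high number of EGF receptors and for carrying a mutant p53.

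The 6 libraries held 17757206 to 19943214 counts each, so that 3 counts amounted to 0.150 to 0.169 CPM (counts divided by the library total and multiplied by 1e+06) before scaling. Pairs of replicates correlated at 0.993 to 0.994 (Pearson, log2 CPM). The trimmed-mean scaling factors (TMM) were 0.870 to 0.919 in the untreated libraries and 1.14 in each of the doxorubicin libraries, so the groups differed in composition before any gene was tested. The 6 markers of squamous epithelium summed to 6863 to 7519 CPM in the untreated libraries and to 6269 to 6419 CPM in the doxorubicin libraries. Among them EGFR measured 1959.8, 1941 and 2067 CPM and 795, 828 and 822 CPM, and KRT5, a basal keratin, 3444, 3476 and 3851 CPM and 1629, 1673 and 1659 CPM. In bulk RNA, fewer cells of a type and less RNA per cell cannot be told apart.

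Doxorubicin changed the level of a large share of the transcriptome. Of 15881 genes tested, 3650 (23%) rose and 2275 (14.3%) fell by more than 2-fold at an adjusted p under 0.05 in edgeR's quasi-likelihood test with Benjamini-Hochberg adjustment, 37.3% in all. A gene is called below only when it passed both thresholds. By more than 4-fold, 2099 genes rose and 483 fell, but the risers include genes at or near 0 in untreated cells, as given below. Among genes with at least 10 counts in every library, 1618 rose and 1579 fell by more than 2-fold. Under library size alone, without the TMM factors, the median log2 fold change of all genes moved from 0.0172 to 0.361 and the split became 4725 up and 1313 down (78.25% up in place of 61.6%). The balance of rises and falls thus depends on the scaling, and a list is read below beside the median of all genes. Counts and medians of lists under library size alone are to be read beside these 4725 rises, 1313 falls and median of 0.361. With upper-quartile factors the split was 4313 up and 1573 down.

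The direction depended on the level of the gene. Of 2537 genes with a mean below 1 CPM over the 6 libraries, 69% rose and 4.45% fell, whereas of 2320 genes at 100 CPM or more, 6.47% rose and 20.7% fell and the median log2 fold change was -0.399. In the rising set, 424 genes had no count in any untreated library, 938 had 3 or fewer counts over the 3 untreated libraries, and 1209 stayed under 1 CPM on average even in the doxorubicin libraries. Genes without counts in untreated cells passed the filter on low counts only through another group in which they were present, so such genes had to differ between some of the groups. Another 1811 rising genes had more than 3 counts in every untreated library. Among the 9608 genes with at least 10 CPM in untreated cells, 487 rose and 1827 fell. Choosing by the untreated level favours falls, since genes that rose from below 10 CPM are left out. Long non-coding RNA genes rose in 410 and fell in 78 of 948 cases, against 3154 and 2174 of 14622 protein-coding genes.

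**Figure D1:**
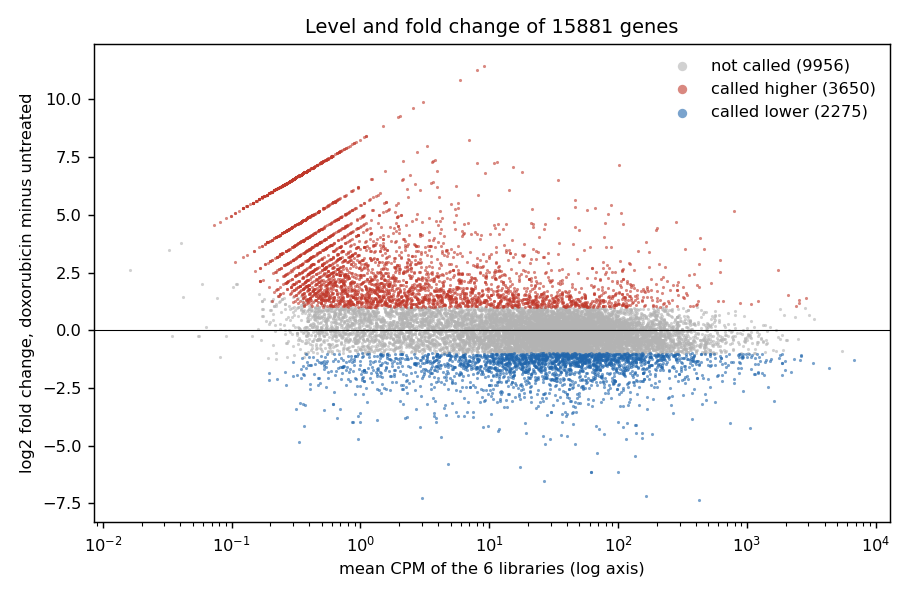
Mean CPM of the 6 libraries (log axis) against the log2 fold change of doxorubicin minus untreated for 15881 genes, with 3650 genes called higher in red, 2275 called lower in blue and the others in grey. The left side of the cloud, at low levels, is mostly red and the right side holds more blue than red.

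The largest rises among genes with at least 10 CPM were of genes at or near 0 in untreated A431 cells, and several of them normally belong to other tissues. MAFA-AS1, a non-coding RNA from the opposite strand beside MAFA, had no count in the untreated libraries and 16.9, 15 and 16.2 CPM after doxorubicin, which is at least 90.2-fold higher when 3 counts per untreated library are taken as the floor. PPY, which encodes pancreatic polypeptide and lies at chr17:42018172-42019844 (GRCh37), went from no count to 12, 13.1 and 10.8 CPM (at least 67.1-fold). MAFA itself, a transcription factor of insulin-producing cells, measured 0.298, 0.276 and 0.0631 CPM in untreated and 30.2, 29.4 and 30.8 CPM in doxorubicin libraries (log2 fold change 7.08 ± 0.21 SE, edgeR adjusted p = 2.11e-18).

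ADAM11, a member of the ADAM family without protease activity that is known from neurons, measured 1.73, 1.71 and 0.757 CPM in the untreated libraries and 206, 204 and 194 CPM in the doxorubicin libraries (log2 fold change 7.14 ± 0.14 SE, edgeR adjusted p = 1.99e-21). C4BPB, which encodes the beta chain of a complement inhibitor, had 2 counts over the untreated and 846 over the doxorubicin libraries, a ratio of 351 with a 95% counting interval of 96.8 to 2900.0. CCK, the gene of the gut hormone cholecystokinin, rose from 0.0596, 0.221 and 0.126 CPM to 23.9, 21.1 and 23.3 CPM (log2 fold change 7.3 ± 0.23 SE, edgeR adjusted p = 4.74e-18). DLL4, a Notch ligand best known from endothelium, rose from 0.0596, 0 and 0.252 CPM to 16.5, 14.5 and 17.1 CPM (log2 fold change 7.25 ± 0.30 SE, edgeR adjusted p = 7.99e-16). The list was completed by the endogenous retroviral element ERVE-5 (log2 fold change 7.24 ± 0.24 SE) and by AZU1, a neutrophil granule protein gene (6.87 ± 0.31 SE). In all 9 the doxorubicin libraries lay above the untreated ones without overlap, but this was a condition of their choice. Groups did not overlap in 82.4% of all genes tested, in one direction or the other.

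The largest falls were taken among genes with at least 10 CPM in untreated cells, so their expression there was a condition of the choice. LY6D, a surface protein of keratinocytes, measured 819.5, 822 and 888 CPM in untreated cells and 5.41, 5.26 and 4.61 CPM after doxorubicin (log2 fold change -7.37 ± 0.089 SE, edgeR adjusted p = 9.54e-25). RXRA, the retinoid X receptor alpha that pairs with many nuclear receptors, measured 339, 301 and 339 CPM and 1.69, 2.31 and 2.73 CPM (log2 fold change -7.18 ± 0.15 SE, edgeR adjusted p = 5.61e-21). SLC19A1, the reduced folate carrier, went from 33.4, 31.9 and 36 CPM to 0.725, 0.491 and 0.446 CPM (log2 fold change -5.91 ± 0.19 SE, edgeR adjusted p = 8.01e-18). In each of these 3 genes every doxorubicin library lay far below every untreated library, where the absence of overlap was again a condition of the choice.

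Further falls of this size were found in ANTKMT, a lysine methyltransferase of the mitochondrial ADP/ATP carriers (52.7, 49.1 and 55.7 CPM against 0.387, 0.835 and 0.446 CPM), and in FAM20C, a kinase of secreted proteins (197, 189 and 209 CPM against 3.29, 2.46 and 2.63 CPM). The imprinted non-coding RNA H19 fell from 128, 119.6 and 117 CPM to 2.22, 1.57 and 1.34 CPM (log2 fold change -6.14 ± 0.13 SE, edgeR adjusted p = 5.03e-21). The row EntrezID_102724852 carries the same counts as H19 and is not a separate observation. CAPN15, METTL26 and NPDC1 completed the list with log2 fold changes of -5.45 ± 0.23, -5.33 ± 0.11 and -4.94 ± 0.16 SE. The libraries carry no strand, and LY6D, ANTKMT, SLC19A1, CAPN15 and NPDC1 share exonic bases with another annotated gene, so reads of the overlapping pairs cannot be separated. Of these 9 genes, counting H19 and its duplicate once, 8 lie within 3 Mb of a chromosome end, and RXRA lies 3.94 Mb from one. Of 10871 genes with a mean of at least 5 CPM, 1020 lie within 3 Mb of an end. The risers AZU1, MAFA and MAFA-AS1 lie that near too, at 0.829, 1.86 and 1.86 Mb.

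**Figure D2:**
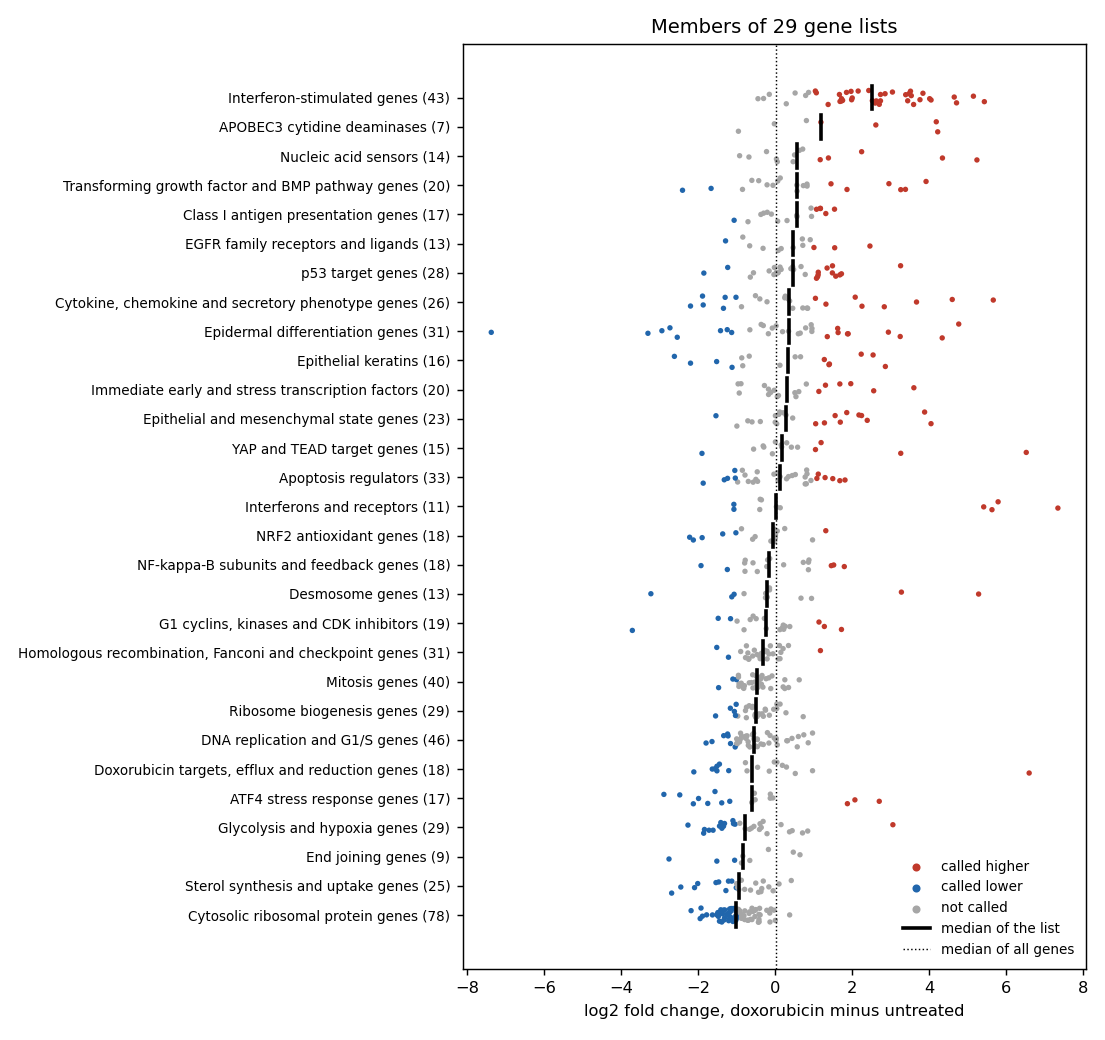
Log2 fold change of doxorubicin minus untreated for the tested members of 29 gene lists, ordered by the median of the list (black bar), with members called higher in red, called lower in blue and not called in grey, and the number of tested members in brackets. Interferon-stimulated genes lie farthest to the right with a median of 2.52, cytosolic ribosomal protein genes farthest to the left with a median of -1.01, and the dotted line marks the median of all genes, 0.0172.

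Grouped by known function, 16 of 29 lists held more members that rose than fell and 12 held more that fell. Over all genes more rose than fell as well, 23% against 14.3%. Against the vehicle control several of the 16 held more that fell, as given with each list below. The interferon-stimulated genes moved most. Of 43 members, all of them tested, 36 rose and none fell, against 23% and 14.3% of all genes, and their median log2 fold change was 2.52. The count was 35 up against vehicle and 36 to 38 up under every other scaling tried, with no member falling.

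Interferon binding to its receptors activates transcription factors, STAT2 and IRF9 among them, that bind a DNA element of the type GAAANNGAAA in front of such genes. The 160 bases before the start of 5 members are given because they let the element be read beside the response (RefSeq, GRCh38.p14, written 5′ to 3′ along the gene, with matches to GAAANNGAAA on either strand in capitals and overlapping matches merged).
ISG15 (chr1:1013337-1013496, plus strand): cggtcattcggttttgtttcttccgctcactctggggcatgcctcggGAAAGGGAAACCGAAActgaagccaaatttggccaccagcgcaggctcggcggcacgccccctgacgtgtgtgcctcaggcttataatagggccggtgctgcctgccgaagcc
IFIT1 (chr10:89392463-89392622, plus strand): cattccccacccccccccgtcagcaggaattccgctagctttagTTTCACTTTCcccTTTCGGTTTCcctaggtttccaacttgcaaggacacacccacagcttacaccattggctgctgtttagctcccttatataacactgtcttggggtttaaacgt
IFI6 (chr1:27672193-27672352, minus strand): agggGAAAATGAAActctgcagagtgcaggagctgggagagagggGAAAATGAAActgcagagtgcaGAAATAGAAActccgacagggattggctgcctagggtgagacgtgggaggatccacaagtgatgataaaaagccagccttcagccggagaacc
MX1 (chr21:41420398-41420557, plus strand): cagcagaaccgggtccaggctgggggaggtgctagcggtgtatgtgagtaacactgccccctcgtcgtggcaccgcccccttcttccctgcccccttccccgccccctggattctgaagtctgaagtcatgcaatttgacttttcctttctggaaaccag
OAS1 (chr12:112906802-112906961, plus strand): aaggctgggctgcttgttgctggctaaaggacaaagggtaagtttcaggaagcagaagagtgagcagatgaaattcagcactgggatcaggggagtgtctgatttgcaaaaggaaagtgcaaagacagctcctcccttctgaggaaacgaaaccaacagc
ISG15 and IFIT1 carry 2 matches each and IFI6 carries 3, while these letters are absent from this window of MX1 and OAS1. Searched over 250 bases before the start, the motif was found in 20 of 34 matched members of the list (58.8%) and in 307 of all 12559 matched genes (2.44%). It was present in 114 of 2745 rising genes (4.15%), in 97 of 2717 rising genes outside the list (3.57%), in 20 of 1790 falling genes (1.12%) and in 2.16% of the genes not called. These shares describe letters in promoters and not binding.

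ISG15, a ubiquitin-like protein that is attached to other proteins during infection, measured 72.9, 71.8 and 78.2 CPM in the untreated libraries and 837, 824 and 885 CPM in the doxorubicin libraries (log2 fold change 3.51 ± 0.059 SE, edgeR adjusted p = 1.44e-22). IFIT1, which binds foreign RNA ends, went from 53, 53.7 and 49.8 CPM to 589.6, 645 and 579 CPM (log2 fold change 3.53 ± 0.074 SE, edgeR adjusted p = 5.61e-21). IFI6, an antiviral membrane protein with 3 motif matches, went from 39.3, 42.6 and 48.3 CPM to 1522, 1528 and 1559.8 CPM (log2 fold change 5.15 ± 0.082 SE, edgeR adjusted p = 7.04e-23). In each of them the lowest doxorubicin library lay several-fold above the highest untreated library.

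The antiviral GTPases MX1 and MX2 both rose. MX1 measured 44.5, 44.2 and 47.6 CPM and 307, 306 and 294 CPM (log2 fold change 2.73 ± 0.058 SE, edgeR adjusted p = 5.68e-21). MX2 measured 4.0, 4.25 and 3.79 CPM and 173, 173 and 174 CPM, the largest log2 fold change of the list (log2 fold change 5.43 ± 0.086 SE, edgeR adjusted p = 7.04e-23). OAS1 and OASL belong to the family of oligoadenylate synthetases that sense RNA strands, with OASL lacking the enzyme activity. OAS1 rose from 28.6, 29.2 and 31.9 CPM to 212, 219 and 218 CPM (log2 fold change 2.85 ± 0.067 SE, edgeR adjusted p = 3.41e-20), and OASL from 20.9, 19.8 and 21.6 CPM to 529, 542 and 556 CPM (log2 fold change 4.71 ± 0.075 SE, edgeR adjusted p = 7.04e-23).

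IRF7, a transcription factor of the pathway that amplifies interferon transcription, rose from 31.2, 26.1 and 32.4 CPM in untreated to 186, 172 and 194 CPM in doxorubicin libraries (log2 fold change 2.62 ± 0.099 SE, edgeR adjusted p = 1.53e-16). The members that were not called were IRF1, IFITM2, IFITM3, SP100, BST2, IRF9 and PARP12, with log2 fold changes from -0.45 to 0.87, and they are named here after their values were seen.

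**Figure D3:**
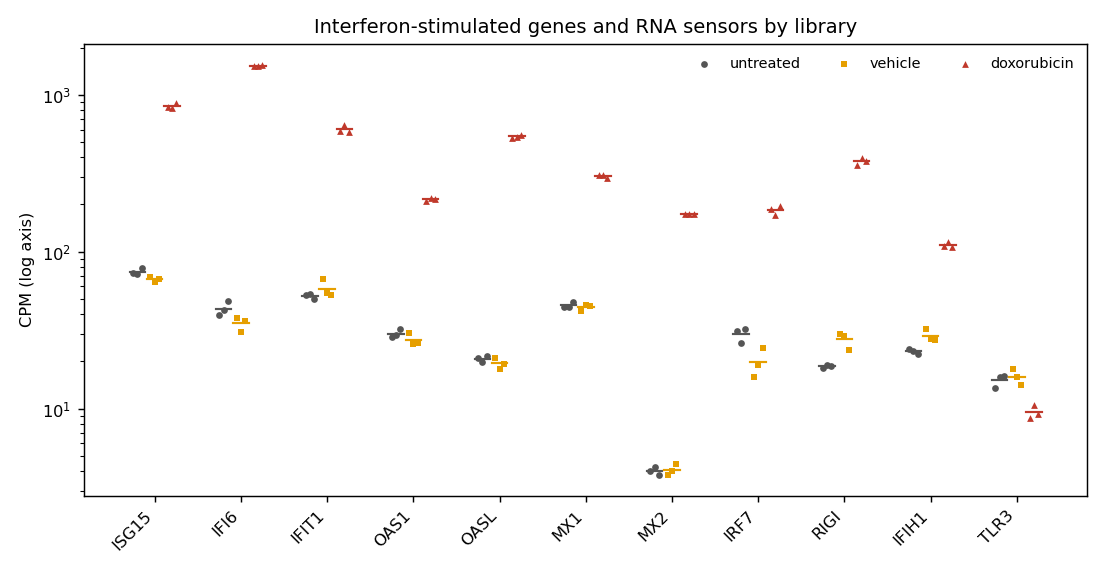
CPM (log axis) of interferon-stimulated genes and RNA sensors in each of the 3 untreated (grey circles), 3 vehicle (orange squares) and 3 doxorubicin libraries (red triangles), with short lines at the group means. For ISG15, IFI6, IFIT1, MX1, MX2, OASL, IRF7, RIGI and IFIH1 the triangles lie above both other groups, while those of TLR3 do not.

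The list of nucleic acid sensors had 5 risers of 14 and no faller (median 0.57), 35.7% rising beside 23% of all genes. RIGI, the RNA sensor RIG-I, rose from 18.1, 19 and 18.6 CPM to 358, 396 and 378 CPM (log2 fold change 4.34 ± 0.078 SE, edgeR adjusted p = 6.20e-22), and IFIH1, the RNA sensor MDA5, from 24, 23.3 and 22.2 CPM to 108, 115 and 107 CPM (log2 fold change 2.25 ± 0.071 SE, edgeR adjusted p = 6.52e-18). ZBP1, a sensor of left-handed nucleic acids, rose from 0.239, 0.276 and 0.315 CPM to 10.7, 11.3 and 9.96 CPM. STING1, the adaptor of the DNA-sensing route, rose from 44.2, 44 and 43.2 CPM to 101, 96.9 and 98.1 CPM (log2 fold change 1.17 ± 0.069 SE, edgeR adjusted p = 4.61e-13), whereas CGAS, the DNA sensor in front of it, measured 63.4, 59.7 and 63.8 CPM and 87.7, 87.4 and 90 CPM and was not called (log2 fold change 0.50 ± 0.060 SE). TLR3, the RNA sensor of endosomes, measured 13.5, 15.8 and 16.1 CPM and 8.7, 10.5 and 9.17 CPM and was not called.

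The interferon genes themselves had low counts. IFNB1, interferon beta, had no count in the untreated libraries and 22, 16 and 26 counts in the doxorubicin libraries, 1.06, 0.786 and 1.29 CPM, at least 5.88-fold higher over the floor of 3 counts per library. The lambda interferons IFNL2 and IFNL3 had 1 count each over the untreated libraries and 68 and 79 counts over the doxorubicin libraries, with ratios of 56.4 (95% counting interval 9.78 to 2259) and 65.5 (11.4 to 2619). The sequences of these 2 genes are nearly identical, so their counts may be shared. IFNL1 measured 0.119, 0.165 and 0.126 CPM and 8.07, 8.3 and 7.53 CPM (log2 fold change 5.79 ± 0.28 SE, edgeR adjusted p = 1.34e-14). IFNA1, IFNW1, IFNK, IFNG and IFNL4 had too few counts to be tested, with at most 8 in any of the 6 libraries.

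Of the receptor chains, IFNAR1 measured 35.5, 35.4 and 40.3 CPM in untreated and 37, 38.3 and 38.4 CPM in doxorubicin libraries and was not called, while IFNAR2 fell from 8.47, 7.12 and 6.88 CPM to 3.87, 4.27 and 2.53 CPM (log2 fold change -1.07 ± 0.17 SE, edgeR adjusted p = 5.29e-06). IFNGR2, a chain of the interferon gamma receptor, fell from 56.1, 61.6 and 65.5 CPM to 30.2, 28.1 and 28.9 CPM (log2 fold change -1.07 ± 0.076 SE, edgeR adjusted p = 1.21e-11). Both falls were close to the 2-fold limit and were not called with RLE or upper-quartile factors or under library size alone.

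Among class I antigen presentation genes, which display peptides to T cells and are induced by interferon, 5 of 17 rose and 1 fell (median 0.56), shares of 29.4% and 5.88% beside the 23% and 14.3% of all genes. With RLE or upper-quartile factors, under library size alone or against the vehicle control 7 rose and none fell. HLA-E rose from 1050.4, 1009 and 1127 CPM to 3043, 3091 and 3139.7 CPM (log2 fold change 1.54 ± 0.053 SE, edgeR adjusted p = 2.48e-17), HLA-B from 1451, 1366 and 1517 CPM to 3559, 3525 and 3702 CPM (log2 fold change 1.32 ± 0.062 SE, edgeR adjusted p = 7.82e-15), and the peptide transporter gene TAP1 from 99.9, 96.6 and 113 CPM to 212, 216 and 224 CPM (log2 fold change 1.07 ± 0.067 SE, edgeR adjusted p = 1.07e-12). B2M, the shared light chain, measured 1867, 1951 and 1884 CPM and 2788, 2769.8 and 2884 CPM and was not called. PSME1, a proteasome activator, fell from 271, 295 and 306 CPM to 138, 136 and 142 CPM (log2 fold change -1.06 ± 0.059 SE, edgeR adjusted p = 1.20e-13), but lost the call under those 4 settings. HLA genes resemble each other closely, and reads may be divided between them.

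The APOBEC3 cytidine deaminases, which edit viral and sometimes cellular DNA, are neighbours on chromosome 22. Of these, 4 of 7 rose with none falling (median 1.19), 57.1% rising beside 23% of all genes. APOBEC3A measured 0.417, 0.441 and 0 CPM and 4.78, 6.44 and 5.2 CPM (log2 fold change 4.18 ± 0.32 SE, edgeR adjusted p = 4.09e-11), and APOBEC3H 0, 0.221 and 0.379 CPM and 4.11, 3.78 and 3.47 CPM (log2 fold change 4.22 ± 0.35 SE, edgeR adjusted p = 1.69e-10). APOBEC3A and APOBEC3B are close in sequence, so reads may be shared between them. APOBEC3B was not called, with 112, 110.3 and 124 CPM in untreated and 111, 115 and 115 CPM in doxorubicin libraries.

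Secreted inflammatory factors moved in both directions. Of 26 cytokine, chemokine and secretory phenotype genes tested, 8 rose and 6 fell (median 0.36). The shares were 30.8% and 23.1%, beside 23% and 14.3% of all genes. Against vehicle the list read 6 up and 12 down (median -0.743), and 12 of the 26 rose in vehicle compared to untreated cells. IL6, a main cytokine of inflammation and of senescent cells, rose from 2.27, 1.6 and 1.45 CPM to 88.3, 90.3 and 91.8 CPM (log2 fold change 5.66 ± 0.11 SE, edgeR adjusted p = 1.23e-21), and CXCL10, an interferon-induced chemokine that attracts T cells, from 1.79, 1.71 and 1.7 CPM to 43.2, 41 and 42.2 CPM (log2 fold change 4.6 ± 0.13 SE, edgeR adjusted p = 5.53e-19). The interleukin 1 genes went the other way. IL1A fell from 179, 193 and 184 CPM to 74.6, 78.4 and 73.6 CPM (log2 fold change -1.3 ± 0.083 SE, edgeR adjusted p = 1.78e-12) and IL1B from 153, 166 and 173 CPM to 42.9, 45.2 and 46.8 CPM (log2 fold change -1.87 ± 0.065 SE, edgeR adjusted p = 3.47e-17). IGFBP3, a binding protein of insulin-like growth factors, fell from 1658, 1763 and 1886 CPM to 456, 493 and 488 CPM (log2 fold change -1.88 ± 0.061 SE, edgeR adjusted p = 9.92e-18).

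The NF-kappa-B list, subunits and the feedback genes they induce, had 3 risers and 2 fallers of 18 (median -0.17), shares below those of all genes. Under library size alone 7 rose and 1 fell (median 0.18, against 0.361 for all genes), and against vehicle 2 rose and 6 fell. ICAM1, an adhesion molecule for leukocytes, rose from 22.2, 18.6 and 20.9 CPM to 70.5, 69.8 and 73.9 CPM (log2 fold change 1.8 ± 0.068 SE, edgeR adjusted p = 1.60e-16). BIRC3, an inhibitor of cell death, fell from 26.2, 25.2 and 24.8 CPM to 9.67, 12.5 and 10.1 CPM (log2 fold change -1.24 ± 0.12 SE, edgeR adjusted p = 1.29e-09), and NFKBIA, the main inhibitor of NF-kappa-B, measured 166, 170.0 and 173 CPM and 125, 123 and 120.1 CPM and was not called.

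Genes known as p53 targets rose in 11 and fell in 2 of 28 cases (median 0.47). The shares were 39.3% and 7.14%, beside 23% and 14.3% of all genes. CDKN1A, which encodes the CDK inhibitor p21, rose from 82.7, 80.9 and 88.5 CPM to 284, 262 and 286 CPM (log2 fold change 1.72 ± 0.057 SE, edgeR adjusted p = 1.58e-17). TP53INP1, a stress-induced regulator of cell death and autophagy, rose from 3.34, 4.52 and 2.21 CPM to 32.8, 33 and 31.8 CPM (log2 fold change 3.26 ± 0.14 SE, edgeR adjusted p = 1.25e-15). BTG2, an antiproliferative gene, rose from 21, 19.9 and 21.2 CPM to 56.7, 58.3 and 59 CPM (log2 fold change 1.49 ± 0.082 SE, edgeR adjusted p = 1.33e-13).

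Other classic targets were not called or fell. MDM2, the ubiquitin ligase that limits p53, measured 26.9, 32.3 and 26.6 CPM and 39.2, 40.6 and 40 CPM (log2 fold change 0.48 ± 0.069 SE), and the death receptor FAS 18.5, 20 and 17.4 CPM and 17.6, 19.4 and 17.8 CPM. DDB2, a damage sensor in nucleotide excision repair, fell from 73, 71.7 and 79.9 CPM to 31.1, 32.4 and 32.1 CPM (log2 fold change -1.23 ± 0.070 SE, edgeR adjusted p = 1.98e-13), and PHLDA3, an inhibitor of AKT, from 210.0, 199.9 and 225 CPM to 60, 55.9 and 60.1 CPM (log2 fold change -1.85 ± 0.089 SE, edgeR adjusted p = 1.11e-14). Compared to vehicle, where 23.7% of all genes rose and 14.8% fell, 4 of the 28 rose and 2 fell. CDKN1A, with vehicle levels of 160.356, 166 and 168 CPM, then had a log2 fold change of 0.75 ± 0.055 SE and was not called. Exons of many other named genes overlap another annotated gene, so reads of such pairs cannot be separated either. Among them are CDKN1A, TP53INP1, IL6, CCND2, IFI6, KRT17, MVK, CHEK1, BUB1B, MX1, FAS, NBN, TAP1 and MDM2, and this is not a full list.

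In the list of G1 cyclins, kinases and their inhibitors, 3 of 19 rose and 3 fell, 15.8% each, near or below the shares of all genes. Beside CDKN1A the risers were CDKN2A, the locus of p16 and ARF (8.88, 10.8 and 12.2 CPM against 21, 24.4 and 24.6 CPM), and CDKN1C, which encodes p57 (2.74, 1.93 and 2.65 CPM against 6.28, 5.75 and 5.65 CPM). CDKN2B, the neighbour of CDKN2A, had 0 counts in all 6 libraries, which allows a level of up to 0.150 to 0.169 CPM. CCND2, cyclin D2, fell from 11.7, 13.3 and 10.2 CPM to 1.01, 1.13 and 0.545 CPM (log2 fold change -3.71 ± 0.19 SE, edgeR adjusted p = 4.18e-14), and RB1, the brake on entry into S phase, from 37.3, 39.9 and 39.8 CPM to 17.4, 17.8 and 17.2 CPM (log2 fold change -1.16 ± 0.073 SE, edgeR adjusted p = 1.29e-12). CCND1, cyclin D1, measured 1280.2, 1248 and 1377 CPM and 855, 907 and 868 CPM and was not called.

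Regulators of apoptosis showed 6 rises and 5 falls among 33 (median 0.13), 18.2% and 15.2% beside 23% and 14.3% of all genes. Under library size alone 12 rose and 1 fell, where 4725 of all 15881 genes rose and 1313 fell. Against vehicle 4 rose and 3 fell (median -0.244). PMAIP1 (NOXA) rose from 78.3, 81.8 and 81.3 CPM to 268, 249 and 256 CPM (log2 fold change 1.68 ± 0.062 SE, edgeR adjusted p = 1.06e-16) and BCL2L11 (BIM) from 22.7, 23.1 and 20.1 CPM to 67.1, 58.5 and 60.3 CPM (log2 fold change 1.5 ± 0.078 SE, edgeR adjusted p = 5.16e-14). TNFSF10, the death ligand TRAIL, rose from 65.3, 66.4 and 65.8 CPM to 155, 177 and 153 CPM (log2 fold change 1.3 ± 0.089 SE, edgeR adjusted p = 6.91e-12), and CFLAR, which blocks caspase 8, from 31.5, 31.4 and 30.9 CPM to 68.9, 66.3 and 63.8 CPM (log2 fold change 1.08 ± 0.059 SE, edgeR adjusted p = 1.16e-13). Compared to vehicle neither PMAIP1 nor CFLAR was called, with log2 fold changes of 0.56 ± 0.060 and 0.42 ± 0.057 SE. TNFRSF1A, a TNF receptor, fell from 119, 121 and 127 CPM to 51.7, 50.7 and 53.4 CPM (log2 fold change -1.24 ± 0.055 SE, edgeR adjusted p = 2.93e-15), and MCL1 and BCL2L1, survival members of the BCL2 family, were not called (log2 fold changes 0.78 ± 0.053 and 0.35 ± 0.065 SE).

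Lists of cell division genes had medians below 0, but few members passed the 2-fold limit. In DNA replication and G1/S, 7 of 46 fell and none rose (median -0.55, or -0.21 under library size alone), against 14.3% of all genes falling, so the share of 15.2% lies near the background. MCM5 and MCM6, subunits of the replicative helicase, fell from 320.4, 314 and 360.0 CPM to 106, 105 and 109 CPM (log2 fold change -1.64 ± 0.079 SE, edgeR adjusted p = 1.13e-14) and from 109, 115 and 131 CPM to 44.1, 48.1 and 48.5 CPM (log2 fold change -1.34 ± 0.068 SE, edgeR adjusted p = 3.40e-14). POLA1, the catalytic subunit of the priming polymerase, fell from 56, 59.7 and 66.9 CPM to 16.7, 17.7 and 18.3 CPM (log2 fold change -1.79 ± 0.085 SE, edgeR adjusted p = 8.11e-15). PCNA, the sliding clamp, measured 534, 574 and 603 CPM and 388, 376 and 407 CPM, and CCNE2, cyclin E2, 8.59, 7.28 and 7.82 CPM and 15.8, 16.5 and 14.1 CPM, and neither was called.

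In mitosis, 3 of 40 fell and none rose (median -0.47), a share below the 14.3% of all genes. BUB1B, of the spindle checkpoint, fell from 93, 95.9 and 92.4 CPM to 32.5, 33.9 and 35.3 CPM (log2 fold change -1.47 ± 0.076 SE, edgeR adjusted p = 4.45e-14), and TPX2, a spindle assembly factor, from 355, 362 and 397 CPM to 168, 184 and 169 CPM (log2 fold change -1.1 ± 0.059 SE, edgeR adjusted p = 8.77e-14). The proliferation marker MKI67 measured 242, 246 and 233 CPM in untreated and 183, 182 and 171 CPM in doxorubicin libraries, CCNB1, cyclin B1, 228, 238 and 242 CPM and 133, 135 and 139 CPM, and CDK1, the mitotic kinase, 122, 136 and 125 CPM and 149, 153 and 153 CPM. None of these 3 was called.

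Among genes of homologous recombination (a repair route for DNA breaks), the Fanconi pathway and damage checkpoints, held in 1 list, few were called. Of 31, 2 fell and 1 rose (median -0.30, or 0.04 under library size alone, where that of all genes was 0.361). The shares of 6.45% and 3.23% lie below the 14.3% and 23% of all genes. CHEK1, a checkpoint kinase, fell from 32.1, 33.9 and 33.3 CPM to 14.8, 13.4 and 14.7 CPM (log2 fold change -1.21 ± 0.094 SE, edgeR adjusted p = 5.89e-11), NBN, of the break-sensing MRN complex, fell from 85.2, 90.1 and 93.6 CPM to 30.1, 33.8 and 30.2 CPM (log2 fold change -1.51 ± 0.070 SE, edgeR adjusted p = 5.04e-15), and RAD51AP1 rose from 26.4, 28.1 and 27.4 CPM to 61.8, 64 and 59.5 CPM (log2 fold change 1.18 ± 0.066 SE, edgeR adjusted p = 1.62e-13). Of 9 end joining genes, 3 fell (33.3% beside 14.3% of all genes), with a median of -0.84. They were PRKDC, the DNA-dependent protein kinase, with 318, 318 and 334 CPM and 108, 118 and 115 CPM (log2 fold change -1.51 ± 0.056 SE, edgeR adjusted p = 1.09e-16), XRCC5, the KU80 subunit, with 385, 399 and 426 CPM and 189, 202 and 193 CPM, and PAXX, a KU partner, with 71, 70.5 and 68.6 CPM and 11.6, 8.89 and 10.6 CPM (log2 fold change -2.75 ± 0.095 SE, edgeR adjusted p = 3.03e-17).

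Of 18 genes for the proteins that bind, expel or reduce doxorubicin, 7 fell and 1 rose (median -0.59). The shares were 38.9% and 5.56%, beside 14.3% and 23% of all genes. TOP2B, the topoisomerase II of resting cells, fell from 92.5, 102 and 94.6 CPM to 32.5, 35.7 and 33.4 CPM (log2 fold change -1.51 ± 0.071 SE, edgeR adjusted p = 7.39e-15), whereas TOP2A, the form of dividing cells, measured 444, 459 and 473 CPM and 270.4, 289 and 270.0 CPM and was not called. ABCC1, the efflux pump MRP1, fell from 192, 185 and 199.8 CPM to 74.7, 69.2 and 68.1 CPM (log2 fold change -1.45 ± 0.068 SE, edgeR adjusted p = 6.77e-15). The other well-known pump of the drug, ABCB1 (P-glycoprotein), had no count in the untreated libraries and 10, 16 and 12 counts in the doxorubicin libraries, at least 3.49-fold higher at a level of 0.483, 0.786 and 0.595 CPM. Aldo-keto reductases, which turn doxorubicin into its alcohol, fell, with AKR1C2 going from 59.2, 62.2 and 62.7 CPM to 14.7, 14.1 and 13.8 CPM (log2 fold change -2.11 ± 0.064 SE, edgeR adjusted p = 3.14e-18) and AKR1A1 from 155, 157 and 153 CPM to 55.1, 54 and 54 CPM (log2 fold change -1.51 ± 0.055 SE, edgeR adjusted p = 6.49e-17). The AKR1C genes are close copies, and reads may be divided between them.

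Ribosomal protein genes had the lowest median of all the gene lists used here. Of 78 genes for proteins of the cytosolic ribosome, 41 fell and none rose (median -1.01), against 14.3% of all genes falling. The count varied with the scaling, from 41 to 31 with RLE factors, 21 with upper-quartile factors and 16 under library size alone, where the median was -0.67 against 0.361 for all genes. RPS16 fell from 1007, 1017 and 1097 CPM to 226, 229.7 and 232 CPM (log2 fold change -2.18 ± 0.064 SE, edgeR adjusted p = 1.65e-18), RPLP0 from 2826, 2932 and 3218 CPM to 764, 761 and 804 CPM (log2 fold change -1.95 ± 0.062 SE, edgeR adjusted p = 8.20e-18), and RPL3 from 2088, 2131 and 2177 CPM to 560.5, 562 and 562 CPM (log2 fold change -1.92 ± 0.047 SE, edgeR adjusted p = 7.22e-20). RPS13, near the upper end of the list, measured 559, 592 and 596 CPM and 406, 393 and 413 CPM and was not called. Many pseudogenes resemble these genes, so their counts are less certain than those of unique genes.

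Of 29 genes of ribosome biogenesis 5 fell and none rose (median -0.51), a share of 17.2% near the 14.3% of all genes, and 1 or 2 fell under the other scalings. FBL, the fibrillarin that methylates ribosomal RNA, fell from 293, 314 and 333 CPM to 107, 107 and 108 CPM (log2 fold change -1.55 ± 0.058 SE, edgeR adjusted p = 1.10e-16), and NPM1, nucleophosmin, from 1389, 1559 and 1506 CPM to 657, 687 and 646 CPM (log2 fold change -1.16 ± 0.059 SE, edgeR adjusted p = 2.83e-14). NCL, nucleolin, measured 1362, 1450.1 and 1433 CPM and 981, 1003 and 1006 CPM and was not called.

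Metabolic lists held more falling than rising genes. In glycolysis and the hypoxia response 13 of 29 fell and 1 rose (median -0.78), 44.8% and 3.45% beside 14.3% and 23% of all genes. Under library size alone 8 fell and 3 rose. LDHA, lactate dehydrogenase, fell from 1791, 1910.4 and 2022 CPM to 522, 529 and 532 CPM (log2 fold change -1.86 ± 0.057 SE, edgeR adjusted p = 3.69e-18), ENO1, enolase, from 2714, 2705 and 3119 CPM to 1133, 1088 and 1152 CPM (log2 fold change -1.34 ± 0.061 SE, edgeR adjusted p = 3.91e-15), and GPI, glucose phosphate isomerase, from 626, 578 and 669 CPM to 182, 169.5 and 174 CPM (log2 fold change -1.83 ± 0.083 SE, edgeR adjusted p = 4.07e-15). The glucose transporter SLC2A3 was the 1 riser, with 3 counts over the untreated and 33 over the doxorubicin libraries (ratio 9.12, 95% counting interval 2.86 to 46.5), while SLC2A1, another glucose transporter, measured 248, 262 and 303 CPM and 219, 209.8 and 226 CPM and was not called.

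Sterol synthesis and uptake genes, which share control by SREBP factors, fell in 10 of 25 cases and rose in none (median -0.94), 40% beside 14.3% of all genes. The number falling was 6 under library size alone, 7 with upper-quartile factors and 16 against vehicle. MVK, mevalonate kinase, fell from 65.7, 66.6 and 69.1 CPM to 10.9, 10.7 and 9.67 CPM (log2 fold change -2.69 ± 0.079 SE, edgeR adjusted p = 1.96e-18), and SQLE, squalene epoxidase, from 239, 261 and 265 CPM to 58.7, 60.4 and 60.3 CPM (log2 fold change -2.09 ± 0.059 SE, edgeR adjusted p = 9.34e-19).

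In the ATF4 stress response, 8 of 17 genes fell and 3 rose (median -0.61), 47.1% and 17.65% beside 14.3% and 23% of all genes. Amino acid genes made up most of the falls, among them ASNS, asparagine synthetase, from 137, 156 and 148 CPM to 37.2, 35.5 and 38.6 CPM (log2 fold change -1.99 ± 0.079 SE, edgeR adjusted p = 3.17e-16), and PHGDH, the entry enzyme of serine synthesis, from 369.5, 361 and 409 CPM to 116, 110.0 and 113 CPM (log2 fold change -1.75 ± 0.069 SE, edgeR adjusted p = 2.84e-16). DDIT3, the stress factor CHOP, rose from 17.1, 16.4 and 16.2 CPM to 109.9, 101 and 113 CPM (log2 fold change 2.7 ± 0.072 SE, edgeR adjusted p = 3.51e-19), but its exons overlap those of MARS1. Of the NRF2 antioxidant genes 5 of 18 fell and 1 rose (median -0.07, or 0.28 under library size alone, where that of all genes was 0.361). Their shares were 27.8% and 5.56%, beside the same 14.3% and 23%. SLC7A11, the cystine transporter held by both lists, fell from 44.4, 49.8 and 54.4 CPM to 10.7, 13 and 10.3 CPM (log2 fold change -2.12 ± 0.090 SE, edgeR adjusted p = 1.07e-15), HMOX1, heme oxygenase, rose from 19.6, 19.4 and 20.1 CPM to 47.8, 47.2 and 52 CPM (log2 fold change 1.31 ± 0.074 SE, edgeR adjusted p = 1.72e-13), and NQO1, a quinone reductase, measured 378, 395 and 406 CPM and 383, 380.0 and 399 CPM.

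Genes of squamous character moved in both directions. Of 16 keratin genes, 6 rose and 4 fell (median 0.32), 37.5% and 25% beside 23% and 14.3% of all genes. KRT16 and KRT17, keratins of stressed and wounded skin, rose from 80.9, 66.9 and 77.7 CPM to 350.0, 353 and 357 CPM (log2 fold change 2.23 ± 0.078 SE, edgeR adjusted p = 3.38e-17) and from 182, 166 and 197 CPM to 1055, 1057 and 1060.5 CPM (log2 fold change 2.54 ± 0.086 SE, edgeR adjusted p = 1.92e-17). KRT15, a keratin of basal cells, fell from 1649.7, 1621 and 1552 CPM to 247, 280.5 and 260.4 CPM (log2 fold change -2.61 ± 0.056 SE, edgeR adjusted p = 7.81e-21), and KRT7, a keratin of simple epithelium, from 99, 101 and 109 CPM to 22.9, 24.3 and 20.4 CPM (log2 fold change -2.2 ± 0.084 SE, edgeR adjusted p = 1.65e-16). KRT14, the basal partner of KRT5, rose from 694, 671 and 752 CPM to 1689, 1699.5 and 1741 CPM (log2 fold change 1.28 ± 0.068 SE, edgeR adjusted p = 7.36e-14). KRT14, KRT16 and KRT17 are similar in sequence, and reads may be divided between them.

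Of 31 epidermal differentiation genes tested (of 37 in the list), 9 rose and 8 fell (median 0.35). The shares were 29.0% and 25.8%, beside 23% and 14.3% of all genes. LY6D fell most, as given above. CALML3, a calmodulin-like protein of epithelium, fell from 104, 109.7 and 126 CPM to 10.8, 11.4 and 12.2 CPM (log2 fold change -3.3 ± 0.099 SE, edgeR adjusted p = 2.80e-18), and IVL, involucrin of the cornified envelope, from 15.3, 17.4 and 18.4 CPM to 6.19, 7.03 and 5.9 CPM (log2 fold change -1.42 ± 0.10 SE, edgeR adjusted p = 2.12e-11). GRHL3, a transcription factor of the skin barrier, rose from 19.9, 18.8 and 20.9 CPM to 61, 61.6 and 60.7 CPM (log2 fold change 1.62 ± 0.068 SE, edgeR adjusted p = 8.92e-16), and KLK5, a protease of skin shedding, from 0.954, 1.05 and 1.51 CPM to 4.01, 3.0 and 3.87 CPM (log2 fold change 1.63 ± 0.20 SE, edgeR adjusted p = 1.70e-07). S100A12, a calcium-binding alarm protein, rose from 0.656, 0.331 and 1.07 CPM to 4.74, 4.91 and 5.95 CPM. Against the vehicle control this list read 6 up and 12 down (median -0.605), so its balance depends on the control.

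Desmosomes, the junctions that hold keratinocytes together, had 2 genes up and 3 down of 13 (median -0.20). The shares were 15.4% and 23.1%, beside 23% and 14.3% of all genes. Under library size alone 4 were up and 1 down (median 0.14, against 0.361 for all genes). PKP3, plakophilin 3, fell from 473, 430.68 and 490.4 CPM to 49.9, 48.5 and 50.7 CPM (log2 fold change -3.23 ± 0.13 SE, edgeR adjusted p = 2.83e-16), DSG3, desmoglein 3, from 122, 128 and 135 CPM to 54.5, 68.5 and 60.9 CPM (log2 fold change -1.07 ± 0.073 SE, edgeR adjusted p = 6.29e-12), and DSC1, desmocollin 1 of the upper epidermis, rose from 0.119, 0 and 0.189 CPM to 0.725, 1.38 and 0.942 CPM (log2 fold change 3.28 ± 0.57 SE, edgeR adjusted p = 1.72e-05). DSP, desmoplakin, measured 235, 239 and 252 CPM and 205, 205 and 202 CPM and was not called.

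In the EGFR family, the receptor that defines A431 cells fell and 3 other members rose, of 13 tested, a share of 23.1% that equals the background within rounding. Under library size alone 6 rose and none fell, and compared to vehicle 2 rose and 4 fell (median -0.358). EGFR, with the values given above, had a log2 fold change of -1.29 ± 0.049 SE (edgeR adjusted p = 1.46e-16), and overlaps EGFR-AS1 on the other strand. EGF, a ligand, rose from 0.119, 0.11 and 0.0631 CPM to 0.773, 0.393 and 0.545 CPM (log2 fold change 2.46 ± 0.55 SE, edgeR adjusted p = 3.18e-04), EPGN, epigen, from 0.298, 0.386 and 0.126 CPM to 0.87, 0.884 and 0.694 CPM (log2 fold change 1.55 ± 0.46 SE, edgeR adjusted p = 0.00397), and the receptor ERBB4 from 0.358, 0.662 and 0.883 CPM to 0.967, 1.13 and 1.73 CPM (log2 fold change 1.01 ± 0.33 SE, edgeR adjusted p = 0.00792). The ERBB4 call stood at the limit and was lost with the replicate block, without a filter, compared to vehicle, and without doxorubicin replicate 3 (log2 fold change 0.714) or untreated replicate 1 (0.718). The ligands AREG, EREG and HBEGF were not called (log2 fold changes -0.31 ± 0.14, 0.081 ± 0.076 and 0.91 ± 0.071 SE). EREG and HBEGF lay on the other side against the vehicle control, with -1.93 ± 0.076 and -1.02 ± 0.067 SE.

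Genes of the epithelial and mesenchymal states rose on both sides, 10 of 23 with 1 falling (median 0.28). The shares were 43.5% and 4.35%, beside 23% and 14.3% of all genes. CDH1, the epithelial cadherin, rose from 362, 370.2 and 399 CPM to 896, 916 and 934 CPM (log2 fold change 1.28 ± 0.052 SE, edgeR adjusted p = 4.57e-16) and VIM, the mesenchymal filament vimentin, from 6.2, 8.27 and 7.38 CPM to 34.8, 32 and 37 CPM (log2 fold change 2.24 ± 0.10 SE, edgeR adjusted p = 6.22e-15). FN1, fibronectin, rose from 177, 177 and 193 CPM to 665, 654 and 665 CPM (log2 fold change 1.86 ± 0.056 SE, edgeR adjusted p = 2.84e-18). CDH2, the neural cadherin, had 2 counts over the untreated and 46 over the doxorubicin libraries (ratio 19.1, 95% counting interval 4.99 to 162), and ZEB1 measured 0.417, 0.386 and 0.631 CPM and 0.725, 0.491 and 0.297 CPM.

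Markers of other cells were measured beside these changes. The 6 markers of mesenchymal-like MDA-MB-231 cells summed to 464.6 to 527.7 CPM in untreated and 319.4 to 326.6 CPM in doxorubicin libraries, and 3 of them (VIM, CDH2, SPARC) rose and 1 (MSN) fell. The 6 fibroblast markers summed to 22.4 to 29.5 CPM and 41.9 to 47.6 CPM, mostly from COL1A1, and 3 of 5 tested members rose and 1 fell, where COL1A2 and COL3A1 had 1 and 2 counts over the untreated libraries. Leukocyte markers summed to 244.8 to 278.2 CPM and 235.7 to 244.2 CPM, nearly all from LCP1, with PTPRC at 0 in the untreated libraries, and 1 of 4 tested members rose. Endothelial markers, with TEK at 0, summed to 21.9 to 25.6 CPM and 11.02 to 13.2 CPM, the sum falling with CDH5 while the other 3 of 4 tested members rose. The part of other cells in the gene lists was not tested.

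The TGF-beta and BMP pathway had 6 risers and 2 fallers of 20 (median 0.57), 30% and 10% beside 23% and 14.3% of all genes, and read 5 up and 3 down against vehicle (median -0.0398). BMP2, a BMP ligand, rose from 4.89, 5.9 and 6.56 CPM to 22.7, 19.9 and 20.6 CPM (log2 fold change 1.87 ± 0.12 SE, edgeR adjusted p = 1.83e-12) and ID2, an inhibitor of differentiation factors, from 16, 18.3 and 17.6 CPM to 129, 132 and 141 CPM (log2 fold change 2.95 ± 0.076 SE, edgeR adjusted p = 1.54e-19), while ID1, its relative, fell from 498, 508 and 490.1 CPM to 161, 149.8 and 161 CPM (log2 fold change -1.66 ± 0.056 SE, edgeR adjusted p = 1.71e-17). ID1 was not called against vehicle (-0.64 ± 0.055 SE). Among YAP and TEAD target genes 4 of 15 rose and 1 fell (median 0.17), a rising share of 26.7% near the background. Compared to vehicle 1 rose and 2 fell (median -0.293). ANKRD1, a target with almost no expression in untreated cells, rose from 0.417, 0.717 and 1.07 CPM to 61.5, 69.8 and 71.1 CPM (log2 fold change 6.52 ± 0.14 SE, edgeR adjusted p = 5.61e-21), and CCN2, a matrix-associated growth regulator in both lists, from 3.64, 3.09 and 3.91 CPM to 33.6, 34.3 and 33.7 CPM (log2 fold change 3.26 ± 0.11 SE, edgeR adjusted p = 1.77e-17). CCN2 was about as high in the vehicle libraries, with 33.2, 31.5 and 29.8 CPM, and its log2 fold change against vehicle was 0.11 ± 0.080 SE (edgeR adjusted p = 0.227), while vehicle against untreated gave 3.15 ± 0.11 SE.

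Immediate early genes differed between the 2 controls. Against untreated cells 6 of 20 (30%, beside 23% of all genes) rose and none fell (median 0.30). Against the vehicle control none rose and 13 fell (median -1.37), and 13 of the 20 rose in vehicle compared to untreated cells, where 1.05% of all genes rose and 1.5% fell. ATF3, a stress-induced repressor, measured 12.2, 10.6 and 14.2 CPM in untreated, 501, 426 and 390.1 CPM in vehicle and 145, 149.7 and 153 CPM in doxorubicin libraries. FOSB, a partner of JUN, measured 37.5, 28 and 28.1 CPM, 609, 697 and 747 CPM and 205, 186 and 160.003 CPM in the same order. EGR1 measured 137, 112 and 117 CPM, 745, 894 and 951 CPM and 133, 122 and 134 CPM. For ATF3 and FOSB the doxorubicin libraries thus lay between the other 2 groups. The vehicle replicates differed more among themselves, with a chi-square per degree of freedom of 9.22 to 26.1 between pairs, than the untreated (3.35 to 5.14) or the doxorubicin replicates (1.87 to 2.66), and the part of this spread in the vehicle comparison was not tested.

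Vehicle libraries were also highest for JUN, with 308 ± 30 CPM in untreated, 830.2 ± 152 CPM in vehicle and 320.1 ± 7.25 CPM in doxorubicin libraries (mean ± SD, n = 3 each), and for the chemokine CXCL8, with 36.5 ± 4.5 CPM, 364 ± 49.3 CPM and 59.9 ± 5.78 CPM. TNFAIP3, a brake on NF-kappa-B, had a log2 fold change of 1.46 ± 0.053 SE against untreated and -1.89 ± 0.052 SE against vehicle. IL6 and CXCL10 rose against either control, with log2 fold changes of 5.08 ± 0.098 and 3.25 ± 0.11 SE against vehicle. Over all genes, 3246 of the 3650 that rose (88.9%) and 1791 of the 2275 that fell (78.7%) were also called in that direction against vehicle, while 11 of the risers were called lower and none of the fallers higher. These comparisons share the doxorubicin libraries, and 38.5% of all genes were called against vehicle.

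Several calls on named genes depended on the control or the scaling. Not called against vehicle were also BTG2, CDH1, KLK5 and RAD51AP1, with log2 fold changes of 0.93 ± 0.078, 0.89 ± 0.051, 0.42 ± 0.17 and 0.96 ± 0.064 SE. The falls of DSG3, XRCC5 and MSN were not called with RLE or upper-quartile factors or under library size alone. Those of AKR1C3, CHEK1, DDB2, KRT5, NPM1, RB1 and TPX2 were lost with upper-quartile factors and under library size alone. Those of BIRC3, EGFR, ENO1, IL1A, MCM6 and TNFRSF1A were lost under library size alone of these 3. AKR1C3 and KRT5 were also not called against vehicle.

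**Figure D4:**
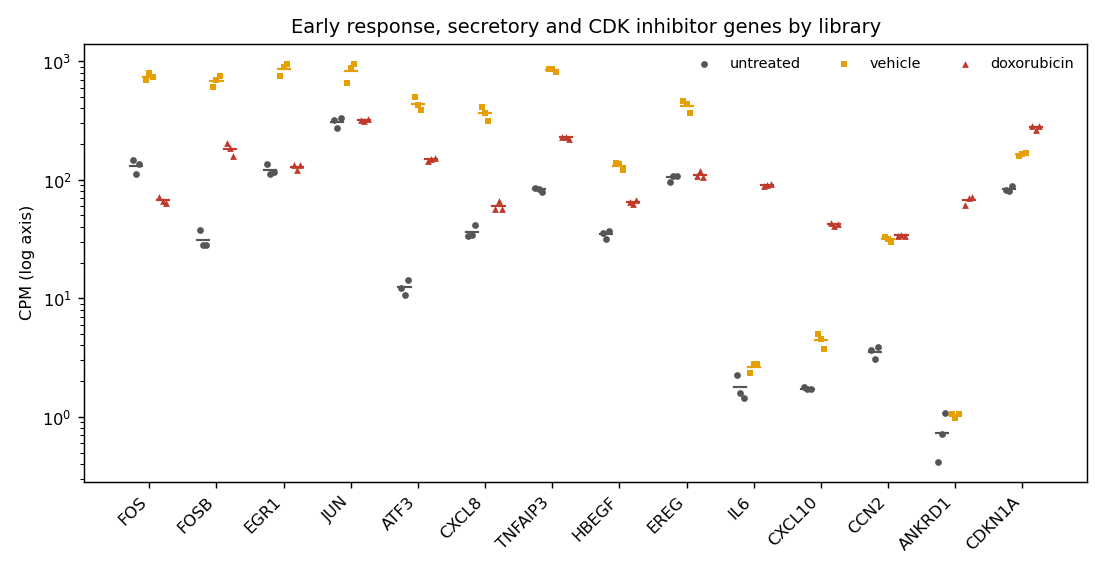
CPM (log axis) of early response, secretory and CDK inhibitor genes in each of the 3 untreated (grey circles), 3 vehicle (orange squares) and 3 doxorubicin libraries (red triangles), with short lines at the group means. For FOS, FOSB, EGR1, JUN, ATF3 and CXCL8 the squares are highest, while for IL6, CXCL10 and ANKRD1 the triangles are highest. For CCN2 the squares and triangles lie close together above the circles.

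The falls were not spread evenly along the chromosomes. Among 10871 genes with a mean of at least 5 CPM, 38.0% of the 1020 genes within 3 Mb of a chromosome end fell and 6.08% rose (median -0.684), against 14.5% falling and 9.47% rising of the 8537 genes at 10 Mb or more (median -0.171), and 17.4% and 9.01% of all of them. The share that fell was 24.0% at 3 to 5 Mb and 17.6% at 5 to 10 Mb. Of 32 chromosome ends with at least 10 such genes, 30 had a median below 0 and 27 a median below that of all 10871 genes. The end of chromosome 14 was lowest, with 14 of 17 genes falling (median -2.06), followed by the end of chromosome 9 (median -1.495) and the start of chromosome 16 (median -1.24). The end of chromosome 19 (median 0.311) and the start of chromosome 20 (median 0.020) were the 2 that did not lie below 0.

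Windows of 1 Mb showed the same. Of 283 windows with at least 10 genes, 13 had a median under -1, and 12 of these lay within 3 Mb of an end, where 34 windows lie in all. In chr14:105000001-106000000 (GRCh37) 14 of 16 genes fell, in chr16:1-1000000 20 of 29, and in chr9:139000001-140000000 18 of 25. The last 2 hold the strongly falling genes ANTKMT, CAPN15, METTL26 and NPDC1 and the end joining gene PAXX. The other window lies on chromosome 10 from 5000001 to 6000000, where 7 of 11 genes fell, among them AKR1C2, AKR1C3 and CALML3. The 1 window with a median over 1, chr19:53000001-54000000, held 8 rising genes of 14.

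Genes near chromosome ends are rich in G and C, with a median of 59.3% GC within 3 Mb and 46.6% at 10 Mb or more, and GC content can affect the yield of a library. Across genes the log2 fold change and GC correlated at -0.149 (Spearman). Within the class of genes with most GC (54.2 to 76.0%), 47.3% of 704 genes near an end fell against 19.8% of 2280 genes far from one. In the middle class the shares were 19.7% and 14.8%, and in the lowest class 10.6% of 85 genes and 10.7%. With GC and length offsets fitted per library the median was -0.453 within 3 Mb and -0.105 at 10 Mb or more, in place of -0.684 and -0.171. In the class with most GC it was -0.568 near an end and 0.0019 far from one. The same genes within 3 Mb had a median of -0.268 in vehicle compared to untreated cells, and those at 10 Mb or more 0.0927. In CKI compared to untreated cells the medians near and far were -0.284 and -0.0332. In CKI with doxorubicin compared to CKI they were -0.333 and -0.0532. How much of the pattern goes with GC content and how much with position was not tested beyond these values.

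**Figure D5:**
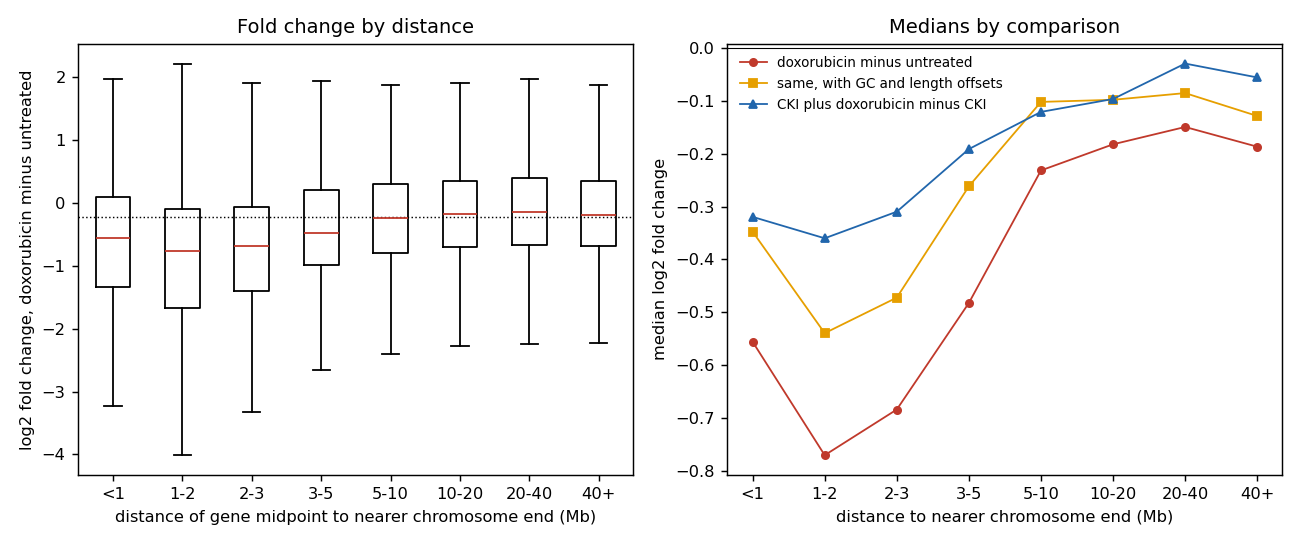
Left, log2 fold change of doxorubicin minus untreated for 10871 genes by distance of the gene midpoint to the nearer chromosome end in Mb (boxes, quartiles, red line, median; whiskers without outliers; dotted line, median of all). Right, the median log2 fold change in the same classes without and with GC and length offsets, and for CKI plus doxorubicin minus CKI; all 3 curves are lowest at 1 to 2 Mb, the first at -0.77.

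The span of a gene on the chromosome gave another pattern. When the 10871 genes were divided into 10 classes of span, 31.6% of the longest, with 149370 to 2057828 bp, fell and 3.86% rose (median -0.61), against 13.3% falling and 8.20% rising in the class of 44824 to 62437 bp. In the shortest class, up to 5955 bp, 22.1% fell and 13.8% rose (median -0.224). The longest class had medians of -0.568 in CKI with doxorubicin compared to CKI, 0.313 in CKI compared to untreated cells and 0.210 in vehicle compared to untreated cells.

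The response to doxorubicin was also measured in the presence of CKI, in 6 libraries that are not part of the comparison above. Compared to CKI alone, CKI with doxorubicin raised 2638 genes (16.6%) and lowered 1439 (9.06%). Of the genes that rose without CKI, 2150 of 3650 (58.9%) rose again, and of those that fell, 818 of 2275 (36.0%) fell again, which are 81.5% and 56.9% of the genes called with CKI present. The opposite call was made for 53 and 26 genes. Over all 15881 genes the log2 fold changes correlated at 0.792 (Pearson) and 0.681 (Spearman).

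Of the interferon-stimulated genes 40 of 43 rose and none fell (median 2.38). MX2 had a log2 fold change of 5.16 ± 0.085 SE and ISG15 of 3.72 ± 0.060 SE in this pair of groups. Of the ribosomal protein genes 1 of 78 fell and 1 rose (median -0.14), and replication genes read 3 up and none down (median 0.22). RPS16 had -0.69 ± 0.061 SE and MCM5 -0.74 ± 0.086 SE. The p53 targets read 3 up and 3 down (median -0.085), with CDKN1A at 0.011 ± 0.054 SE. Sterol genes fell in 12 of 25 cases.

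The difference between the responses, tested as the interaction of doxorubicin and CKI, was called for 3092 genes (19.5%), with 1360 (8.56%) positive and 1732 (10.9%) negative. Of these, 2086 were also called in doxorubicin compared to untreated cells, and 1394 of them had a smaller change of the same sign with CKI, 60 a larger one and 632 a change of the opposite sign. A call without CKI enters both counts, so a smaller change is favoured by that choice. Of the 78 ribosomal protein genes, 26 had a called interaction.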

How the data were processed

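RNA-seq was done by the authors on unstranded paired-end libraries of total RNA (NEBNext Ultra kit), and the deposited table holds raw counts per gene for 24566 Entrez gene IDs. The submitters' processing notes name Trim Galore 0.3.7, STAR 2.5.3a and the build hg19; the counting tool and annotation are not given in the sources used here. Symbols came from RefSeq (24422 rows matched) and positions from GENCODE on GRCh37 (24440 rows). Reads shared by near-identical or overlapping genes can be divided in ways these counts do not show.

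The counts of all 15 A431 libraries (5 groups of 3) were fitted together in edgeR 4.0.16 (R 4.3.3) with TMM factors, filterByExpr and the quasi-likelihood test without covariates, and doxorubicin was compared to untreated. A gene was called when its change exceeded 2-fold (1 on the log2 scale) and its Benjamini-Hochberg adjusted p was under 0.05. CPM values are TMM-normalised and SE is that of the log2 fold change. A floor of 3 counts per untreated library bounded folds against 0, and intervals for 1 to 3 counts were exact binomial at 95%, and both cover counting error only. With members at 0 in untreated cells set to their bound, the median of no pathway list moved, and that of all genes became 0.0163. The script was checked on simulated data.

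Named genes were the 10 largest rises and falls among called genes with at least 10 CPM in the higher group and no overlap, the key members of each list, and in each list the 3 called members with the smallest adjusted p per direction, less genes that are not reported here. The 29 lists were written from general knowledge, and the comparison, members and lists were chosen with earlier results of these data known. No list was tested as a set. Alternatives were RLE, upper-quartile and no factors, DESeq2 1.42.0, other filters, the 6 libraries alone, leaving out each replicate, a replicate block, the vehicle control, adjusted p alone, and, added after seeing the data, GC and length offsets and 1 row per Ensembl ID.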

Additional observations from a re-analysis of the deposited data

Results flagged for a closer look

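The interaction of doxorubicin and CKI was called for 3092 genes, 1360 with a positive and 1732 with a negative value. For 17 of the 19 named genes with the largest rises and falls, the response to doxorubicin differed between cells without and with CKI, by the interaction term of edgeR (adjusted p under 0.05 and absolute log2 difference over 1, passed by 19.5% of all genes). These genes were chosen for their doxorubicin response without CKI, which is part of the interaction, so a smaller response with CKI is favoured by the choice. The interaction values, on the log2 scale as the response with CKI minus the response without it, were negative for the rising genes, with AZU1 at -6.60, ADAM11 at -5.52, DLL4 at -3.56, ERVE-5 at -3.34, CCK at -2.65 and MAFA at -1.71. MAFA-AS1, also called, had no count in the untreated libraries, so the size of its interaction depends on the prior count and is not given. They were positive for the falling genes, with NPDC1 at 2.47, FAM20C at 2.96, ANTKMT at 2.99, RXRA at 3.30, METTL26 at 3.47, CAPN15 at 3.79, LY6D at 3.81, SLC19A1 at 3.84 and H19 at 4.03, shared by EntrezID_102724852 (4.03), which carries the same counts. With CKI present, 18 of the 19 were still called in the same direction, and AZU1 was not. The counts of 17, 18 and 19 each include H19 and its duplicate row, which are 1 observation.

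ADAM11 measured 1.94, 2.03 and 1.48 CPM with CKI and 6.25, 4.4 and 6.24 CPM with CKI and doxorubicin, against 206, 204 and 194 CPM with doxorubicin alone. LY6D measured 117, 122 and 131 CPM with CKI and 10.8, 10.2 and 10.5 CPM with both. RXRA measured 250.3, 278 and 264 CPM and 18.3, 17.5 and 17.9 CPM in the same groups. C4BPB and PPY had no called interaction.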

How the results depend on the processing

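The number of rising genes lay between 3784 and 3942 and that of falling genes between 2265 and 2355 when each replicate was left out in turn. Under library size alone 1313 genes fell. Without a filter on low counts 5634 rose, and with at least 10 counts in every library 3197 were called, 1618 of them up. By adjusted p alone 12802 were called, 6467 up and 6335 down. With CKI present the calls were 6171 without a filter (4581 up) and 1837 with at least 10 counts in every library (809 up). RLE factors gave 3885 up and 1981 down, DESeq2 3868 and 1977, the 6 libraries alone 3268 and 1952, the vehicle control 3771 and 2346, and GC and length offsets, chosen after seeing the data, 3928 and 1906. The named genes that changed sign with a call in either fit did so against the vehicle control, with log2 fold changes of -1.02 for HBEGF, -2.74 for EGR1, -1.93 for EREG, -1.90 for FOSB, -0.700 for CCN1, -2.60 for CXCL8, -1.38 for JUN, -1.56 for ATF3 and -1.89 for TNFAIP3, and the cause was not tested. Genes called in neither fit changed sign too, among them MCL1 (-0.454 against vehicle). Over all alternatives, 3891 values of named genes stayed on their side of the thresholds, 128 lost the call, 102 gained it and these 9 turned. Same-numbered replicates deviated together with correlations of only 0.024, 0.011 and 0.053, so the numbers do not pair the libraries. With the replicate block 3643 genes rose and 2276 fell, and 5911 of the 5925 calls remained. At this depth genes under 3 counts per library, 0.150 to 0.169 CPM in these libraries, could not be told from absent.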
